A study of Homo sapiens with 21 samples.

Results

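Fibronectin and the matricellular proteins were followed through 7 of the 20111 genes in the deposited expression tables: FN1, SPP1, TGFBI, THBS1, TNC, SPARC and POSTN. The genes were taken by symbol, and all 7 were found in both tables. The study sequenced bulk mRNA of PC-9 cells, an established human lung adenocarcinoma line that carries an activating deletion in EGFR. In the untreated experiment, parental cells were compared with EGFR-low and EGFR-high cells, which are populations enriched by repeated sorting of antibody-stained cells for the lowest or the highest EGFR, all harvested 24 h after seeding. In the vorinostat experiment, EGFR-low and EGFR-high cells were held for 72 h in 1 µM vorinostat, an inhibitor of histone deacetylases, or in its vehicle DMSO. Each of the 7 groups had 3 libraries, numbered as replicates 1, 2 and 3, which gave 21 libraries in all. All groups share the EGFR deletion of the line. The genotype label reads delE746-A750 for the first library and its last residue number rises by 1 from library to library up to delE746-A770, so the 21 libraries carry 21 distinct labels, and this label was not used to define groups. The groups come from 1 cell line, the sorted cells are populations and not clones, and the vorinostat experiment has no parental group. Values are FPKM, in which fragments are divided by the length of the transcript and by the sequenced fragments of the library, so it is a scale per length on which levels of different genes can be set side by side. The 2 experiments were fitted separately and were never tested against each other, and all p-values measure the spread between these libraries.

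Fibronectin is a secreted glycoprotein that cells bind through integrins and pull into fibrils, which then carry collagens, growth factors and latent TGFβ. Matricellular proteins are secreted into the same matrix but act less as scaffold than as ligands that change adhesion, protease activity and growth factor signaling. In lung tumors both classes are made by fibroblasts of the stroma and by carcinoma cells themselves, and several of the genes are known targets of TGFβ.

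Epithelial identity was checked first. All 6 epithelial markers (EPCAM, CDH1, KRT7, KRT8, KRT18 and KRT19) reached 1 FPKM in every library. Their summed level differed between the sorted populations, but the single markers did not all go the same way. The 6 markers summed to 2982, 1801 and 3015 FPKM in untreated EGFR-low, 3172, 3134 and 4045 FPKM in untreated EGFR-high and 3212, 2076 and 2287 FPKM in parental libraries. In the 12 other libraries the sums were 1552 to 1864 FPKM in the 6 of EGFR-low and 2681 to 3627 FPKM in the 6 of EGFR-high cells, so in both experiments every EGFR-low library lay below every EGFR-high library. Untreated, limma called 0 of these 6 markers between EGFR-low and EGFR-high cells, with KRT8 alone at an unadjusted p under 0.05 (0.0487). In DMSO the keratins KRT8, KRT19 and KRT18 were called lower in EGFR-low cells (log2 fold changes of -1.46, -1.31 and -0.94) and CDH1, the cadherin of epithelial junctions, higher (1.06), and in vorinostat KRT8, KRT19 and KRT18 were at -2.16, -1.66 and -1.25, CDH1 at 0.91 and EPCAM at 0.48, all called. Of 9 fibroblast markers only COL1A1 reached 1 FPKM, the sum over the list was between 1.02 and 5.90 FPKM, and DCN was at 0 in every library. COL1A1, a collagen gene, was at 3.93, 1.57 and 5.87 FPKM in untreated EGFR-low and at 1.07, 1.05 and 2.67 FPKM in untreated EGFR-high cells, and its part in the results for the members was not tested. The 6 macrophage and leukocyte markers summed to between 16.9 and 46.1 FPKM, and CD68 was the most abundant. CD68 was also the only one of them at 1 FPKM or more in the 9 untreated libraries and the 6 EGFR-high libraries of the vorinostat experiment, in whose 6 EGFR-low libraries 2 or 3 reached it. There CSF1R was at 1.63 to 6.17 FPKM, against at most 0.862 FPKM in EGFR-high libraries, and CD14 at 0.739 to 3.92 FPKM, against at most 0.600 FPKM. PTPRC, CD163 and TYROBP stayed under 1 FPKM in every library. The 3 endothelial markers found summed to between 2.27 and 8.30 FPKM. Of these KDR was at 2.33 to 3.79 FPKM in the 6 EGFR-low and at most at 0.881 FPKM in the 6 EGFR-high libraries, and CDH5 was at 8.30, 5.59 and 6.71 FPKM in untreated EGFR-low cells, above all other untreated libraries. CSF1R, CD14 and KDR were called higher in EGFR-low cells in DMSO (1.03, 0.82 and 1.91) and in vorinostat (1.76, 1.54 and 1.90), each having passed the filter on low values only through the EGFR-low libraries. Other markers of these lists did not follow them: in DMSO and in vorinostat CD68 was at -0.52 (unadjusted p = 0.0440) and 0.16, CDH5 at 0.10 and -0.47 and COL1A1 at 0.05 and 0.06, with none of these called and the highest CDH5 value of that experiment in an EGFR-high library (8.01 FPKM, vorinostat replicate 1). The part of these markers in the results for the members was not tested. EGFR itself followed the sort in both experiments. It was 60.2, 26.5 and 60.6 FPKM in untreated EGFR-low cells, 269, 161 and 243 FPKM in untreated EGFR-high cells and 261, 120.1 and 244 FPKM in parental cells. In the vorinostat experiment EGFR was 16.1 to 43.3 FPKM in the 6 EGFR-low libraries and 83.3 to 207 FPKM in the 6 EGFR-high libraries.

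Several libraries stood apart from the others of their group, which bears on every member described here. A set of 32 genes was at 10 FPKM or more in all 3 vorinostat-treated EGFR-low libraries and at 1 FPKM or less in all 3 vorinostat-treated EGFR-high libraries, and 101 genes had the opposite pattern, with FN1 and the other members left out of both sets. The 101 EGFR-high genes stood at a median of 21.1% of their vorinostat-treated EGFR-high level in EGFR-low DMSO replicate 1, against 0.487% and 0.313% in EGFR-low DMSO replicates 2 and 3. In EGFR-high DMSO replicate 3 the 32 EGFR-low genes stood at 26.3% of their vorinostat-treated EGFR-low level, against 0.273% and 0.250% in EGFR-high DMSO replicates 1 and 2. The vorinostat-treated libraries were used to choose these genes, so the sets cannot tell whether 1 of those stood apart. By correlation EGFR-low DMSO replicate 1, EGFR-high DMSO replicate 3 and replicate 1 of both vorinostat groups were the least like the other libraries of their groups. In each untreated group the least alike library was replicate 2. In the untreated EGFR-low libraries the 32 EGFR-low genes were at medians of 0.0795%, 0.0913% and 0.0814%, and the 101 EGFR-high genes at 58.1%, 50.2% and 63.3%, so the EGFR-low cells of the 2 experiments differed in both sets. What sets these libraries apart was not tested, and neither was whether their labels are right. The vorinostat libraries of replicate 2 in EGFR-low and EGFR-high cells and of replicate 3 in EGFR-low cells lay close to the DMSO libraries of the same number, with 10, 31 and 6 of 12236 genes more than 1 apart on the log2 scale. Groups are named here as labelled, and what is said of EGFR-low against EGFR-high cells in DMSO, or of vorinostat against DMSO, holds only as far as those labels do. Results for members and named list genes called in the vorinostat experiment are given with and without the libraries that stood apart, a choice made after the data had been seen. The 4 libraries left out are the least alike of their groups, as are the replicate 2 libraries of the untreated groups, so leaving them out narrows the spread by construction and leaves 2 libraries against 2. Fits without them are read for direction and size only, and a smaller p or a call gained in them is no support.

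Levels of the members covered a wide range within each group. In untreated EGFR-low cells the mean level in FPKM was highest for SPP1 (458 ± 177, SD, n = 3), followed by TGFBI (133 ± 44.7), FN1 (59.1 ± 31.9), THBS1 (15.0 ± 4.32) and TNC (5.77 ± 3.77). Parental and untreated EGFR-high cells had another order, with SPP1 and TGFBI again first but THBS1 ahead of FN1. In EGFR-low cells of the DMSO group TGFBI led with 655 ± 273 FPKM, then came FN1 (22.9 ± 4.06), TNC (18.1 ± 4.86), SPARC (17.4 ± 2.92), THBS1 (6.16 ± 0.432) and SPP1 (5.01 ± 7.18). The vorinostat-treated EGFR-low cells had the same order. Neighbors such as TNC and SPARC in the EGFR-low DMSO cells lay within their spread of each other. POSTN, which encodes periostin, an integrin ligand made mainly by fibroblasts, was at 0 in 9 of 9 untreated libraries and in 10 of 12 libraries of the vorinostat experiment, with a highest value of 0.00959 FPKM, and it was not tested.

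The test was limma on log2(FPKM + 1) over every gene that reached 1 FPKM in 3 or more libraries of its experiment, with Benjamini-Hochberg adjustment within each comparison and calls at an adjusted p under 0.05. Fold changes on this scale understate the change of genes near 1 FPKM. In untreated cells, EGFR-low against EGFR-high, 2 of the 5 members tested were called, FN1 and SPP1, both higher in EGFR-low, and 3.81% of 11305 genes were called. With the replicate number as a block TNC was called higher as well, where 8.54% of genes were called. The numbers are not shown to mark pairs, so calls gained with the block here and below are an alternative only. Against parental cells, 1 of 5 members, FN1, was called in EGFR-low cells, with 1.60% of genes called. Between EGFR-high and parental cells limma called 0 of 5 members and 0.0708% of genes, and 1 member (SPP1) had an unadjusted p under 0.05. Between EGFR-low and EGFR-high cells in DMSO 5 of 6 members were called, 4 higher and 1 lower in EGFR-low cells. In that comparison 51.8% of 12236 genes were called, 31.1% higher and 20.7% lower, so a member count of this size stands against a background in which most genes differed. In vorinostat the count was 6 of 6, 4 higher and 2 lower, against 59.0% of genes called, 36.2% higher and 22.8% lower. SPARC and TNC entered these counts through the EGFR-low libraries in which they are high, with 1 and 2 of the 6 EGFR-high libraries at 1 FPKM or more, so both had to differ, and neither these counts nor the medians are support for a pattern of the members. The median log2 fold change of the members tested was 1.103, against -0.03 for all genes tested, in the untreated comparison of EGFR-low with EGFR-high. It was 2.31 against 0.12 in DMSO and 2.17 against 0.16 in vorinostat.

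**Figure D1:**
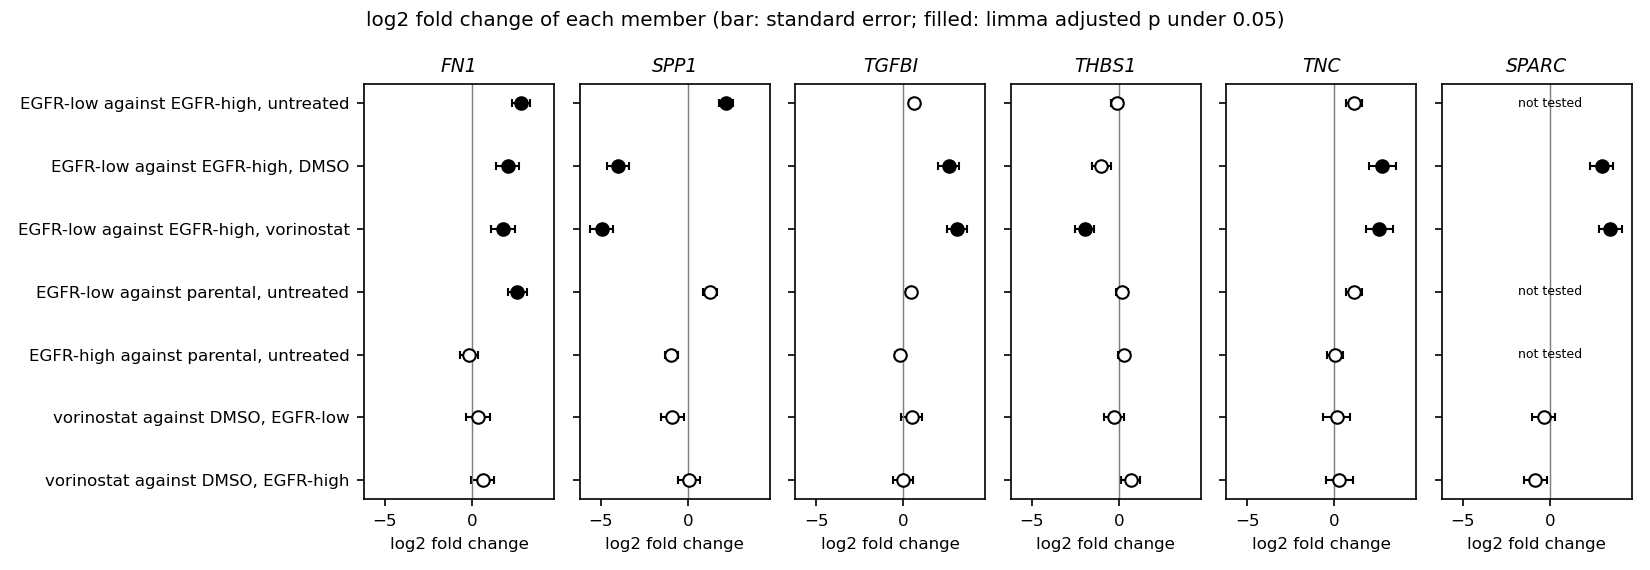
The log2 fold change of each member on the log2(FPKM + 1) scale in 7 comparisons, with bars for the standard error and filled points for a limma adjusted p under 0.05. TGFBI, TNC and SPARC are filled in the DMSO and vorinostat comparisons of EGFR-low with EGFR-high cells and SPP1 changes side between the untreated and the other comparisons.

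Promoters are shown for FN1, TGFBI, TNC and SPARC, which were higher together in EGFR-low cells of the vorinostat experiment, for SPP1, which was lower there, and for THBS1, which was called lower there in vorinostat. Each sequence is the 250 bases before the annotated start in the RefSeq table for GRCh38.p14, written 5′ to 3′ on the strand of the gene, with motif matches in capitals. The FN1 promoter lies at chr2:215436069-215436318 on the minus strand, SPP1 at chr4:87975464-87975713 on the plus strand and TGFBI at chr5:136028738-136028987 on the plus strand. TNC lies at chr9:115118158-115118407 and SPARC at chr5:151686916-151687165, both on the minus strand, and THBS1 at chr15:39580829-39581078 on the plus strand.
FN1: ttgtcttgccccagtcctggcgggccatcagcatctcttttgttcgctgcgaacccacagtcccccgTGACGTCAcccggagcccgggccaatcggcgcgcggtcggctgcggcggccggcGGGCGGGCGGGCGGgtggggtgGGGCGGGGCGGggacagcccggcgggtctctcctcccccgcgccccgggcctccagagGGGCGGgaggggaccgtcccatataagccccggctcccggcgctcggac
TGFBI: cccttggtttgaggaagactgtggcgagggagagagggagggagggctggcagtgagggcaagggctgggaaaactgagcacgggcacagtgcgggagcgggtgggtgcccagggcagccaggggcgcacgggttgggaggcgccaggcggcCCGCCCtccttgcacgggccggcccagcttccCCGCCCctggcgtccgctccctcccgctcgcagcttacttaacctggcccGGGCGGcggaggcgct
TNC: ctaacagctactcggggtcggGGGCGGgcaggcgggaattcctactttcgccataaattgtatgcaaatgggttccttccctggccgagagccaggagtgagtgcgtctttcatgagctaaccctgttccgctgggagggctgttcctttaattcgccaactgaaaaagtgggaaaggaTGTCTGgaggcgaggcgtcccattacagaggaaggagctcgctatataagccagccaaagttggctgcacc
SPARC: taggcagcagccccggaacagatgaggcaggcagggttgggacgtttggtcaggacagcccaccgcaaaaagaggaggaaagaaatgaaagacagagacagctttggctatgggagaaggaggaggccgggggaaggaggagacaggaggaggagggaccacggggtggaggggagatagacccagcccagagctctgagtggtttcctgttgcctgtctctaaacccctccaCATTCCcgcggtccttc
SPP1: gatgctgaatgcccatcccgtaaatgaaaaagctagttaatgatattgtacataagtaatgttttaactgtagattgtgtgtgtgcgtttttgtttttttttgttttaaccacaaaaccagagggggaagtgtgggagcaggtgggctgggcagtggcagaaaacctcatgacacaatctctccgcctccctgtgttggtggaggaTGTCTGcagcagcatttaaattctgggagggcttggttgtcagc
THBS1: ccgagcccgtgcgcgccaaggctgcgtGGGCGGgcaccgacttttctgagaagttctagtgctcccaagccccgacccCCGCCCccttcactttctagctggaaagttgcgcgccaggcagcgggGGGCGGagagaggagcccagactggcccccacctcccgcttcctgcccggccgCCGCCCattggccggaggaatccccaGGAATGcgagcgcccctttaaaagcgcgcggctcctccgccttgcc
The letters searched on both strands, from 250 bases before to 50 after the start, were TATAAA for the TATA box (in 11.5% of 35116 promoters of the same length), GGGCGG for the GC box (45.0%), TGANTCA for the core of an AP-1 site (7.71%), TGACGTCA for the cAMP response element (1.85%), GGAATG for the core of a TEAD site (14.0%) and CAGACA for that of a SMAD site (16.9%). None of these contains another, and matches of GGGCGG can overlap their neighbors. FN1 had 6 matches of GGGCGG and TGACGTCA at 183 bases before the start, TGFBI had 4 matches of GGGCGG, 1 of them after the start and so outside the printed bases, and TNC had GGGCGG at 229 and CAGACA at 71 bases before the start. SPARC had GGAATG at 17 and SPP1 had CAGACA at 44 bases before the start, both on the minus strand relative to the gene. THBS1, which was lower, had 4 matches of GGGCGG, as TGFBI did, and GGAATG at 46 bases before the start. No motif was found in all of FN1, TGFBI, TNC and SPARC. The matches describe letters only.

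FN1 encodes fibronectin itself, the ligand of α5β1 and αv integrins. In untreated cells it was at 78.3, 22.2 and 76.8 FPKM in the EGFR-low libraries, at 8.47, 3.94 and 8.50 FPKM in the EGFR-high libraries and at 10.2, 3.70 and 11.6 FPKM in the parental libraries. The replicate 2 libraries were the lowest of every group, and all EGFR-low libraries lay above all others. In the vorinostat experiment FN1 was at 18.3, 24.7 and 25.8 FPKM in EGFR-low cells in DMSO and at 2.76, 3.08 and 11.5 FPKM in EGFR-high cells in DMSO, again without overlap. With vorinostat it was at 33.6, 25.7 and 27.0 FPKM in EGFR-low cells and at 31.2, 2.86 and 4.33 FPKM in EGFR-high cells, where replicate 1 reached into the EGFR-low range. The log2 fold change of EGFR-low over EGFR-high cells was 2.78 ± 0.522 (SE) untreated (limma adjusted p = 0.0127), 2.04 ± 0.665 in DMSO (limma adjusted p = 0.0231) and 1.76 ± 0.665 in vorinostat (limma adjusted p = 0.0382). Against parental cells FN1 rose by 2.59 ± 0.522 in EGFR-low cells (limma adjusted p = 0.0319). The exact two-sided permutation test of FN1 gave its smallest possible p of 0.1 in all of these except the vorinostat comparison, where it gave 0.3.

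The FN1 calls were close to the threshold. For untreated EGFR-low against EGFR-high cells FN1 lost its call when EGFR-low replicate 1 (limma adjusted p = 0.0627) or 3 (0.0577) or EGFR-high replicate 2 (0.0533) was left out. Against parental cells it was lost without parental replicate 1 (0.0897), 2 (0.0622) or 3 (0.0531) and without EGFR-low replicate 1 (0.153) or 3 (0.157), and also with no filter on low values (0.0788) or when EGFR-high libraries were left out of the fit (0.0529). In DMSO the FN1 call was lost without EGFR-low replicate 2 (0.0634) or 3 (0.0666) and without EGFR-high replicate 1 (0.0872) or 2 (0.0823). In vorinostat it was lost without EGFR-low replicate 1 (0.0936), 2 (0.0689) or 3 (0.0744) and without EGFR-high replicate 2 (0.158) or 3 (0.130), as well as with no filter (0.0734), median-of-ratios scaling (0.0661), quantile normalization (0.0543) or only the compared groups (0.0699). Its direction was kept in each case. Without EGFR-high vorinostat replicate 1 the log2 fold change of FN1 in vorinostat was 2.71. Without the 4 libraries that stood apart FN1 differed by 2.74 in DMSO and by 2.59 in vorinostat, and without the replicate 2 libraries of the untreated groups by 3.05 from EGFR-high and by 2.73 from parental cells.

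TNC encodes tenascin-C, a hexameric glycoprotein that modulates adhesion to fibronectin. Its levels in untreated cells were 5.89, 1.94 and 9.49 FPKM in EGFR-low, 2.56, 0.830 and 2.30 FPKM in EGFR-high and 2.69, 0.795 and 2.00 FPKM in parental libraries. The EGFR-low replicate 2 library fell within the range of the other groups. In DMSO TNC was at 13.1, 22.8 and 18.5 FPKM in EGFR-low and at 0.674, 0.508 and 7.87 FPKM in EGFR-high libraries, and with vorinostat at 23.4, 20.6 and 14.96 FPKM and at 11.97, 0.561 and 0.958 FPKM. The EGFR-high libraries with the high TNC values were DMSO replicate 3 and vorinostat replicate 1, both among those that stood apart, and neither reached the EGFR-low range of its treatment. The untreated log2 fold change of TNC over EGFR-high cells, 1.103 ± 0.451, did not pass the test (limma adjusted p = 0.300), and neither did the 1.14 ± 0.451 over parental cells (limma adjusted p = 0.275). With the replicate number as a block TNC was called against EGFR-high cells (limma adjusted p = 0.0284). Without the replicate 2 libraries TNC differed by 1.31 from EGFR-high and by 1.35 from parental cells, which passed the threshold in fits that leave out the least alike libraries. Without EGFR-low replicate 3 the values were only 0.70 and 0.73, and with a pseudocount of 5 they were 0.59 and 0.60. TNC differed by 2.73 ± 0.774 in DMSO (limma adjusted p = 0.0117) and by 2.58 ± 0.774 in vorinostat (limma adjusted p = 0.0133). It passed the filter there only through the EGFR-low libraries, with 2 of 6 EGFR-high libraries at 1 FPKM or more, so it had to differ and these p-values are no support. The call was lost for TNC, EGFR-low against EGFR-high, DMSO, without EGFR-high DMSO replicate 1 (limma adjusted p = 0.0507) or 2 (0.0537). It was lost for TNC, EGFR-low against EGFR-high, vorinostat, without EGFR-high vorinostat replicate 2 (0.0583) or 3 (0.0539). Without the 4 libraries that stood apart the TNC differences were 3.76 in DMSO and 3.41 in vorinostat, and with a pseudocount of 5 they were 1.63 and 1.56.

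TGFBI encodes an integrin-binding matrix protein named for its induction by TGFβ. Untreated levels were 115, 99.5 and 183 FPKM in EGFR-low, 88.3, 76.6 and 87.9 FPKM in EGFR-high and 127, 82.5 and 82.3 FPKM in parental libraries. EGFR-low and EGFR-high libraries did not overlap, and parental libraries lay across both. TGFBI was at 388, 934 and 642 FPKM in EGFR-low cells in DMSO and at 79.7, 56.7 and 230.5 FPKM in EGFR-high cells in DMSO. With vorinostat it was at 780.4, 953 and 836 FPKM in EGFR-low cells and at 259.9, 62.9 and 62.2 FPKM in EGFR-high cells. The groups did not overlap in either treatment, and the highest EGFR-high values were again DMSO replicate 3 and vorinostat replicate 1. The untreated log2 fold change of 0.60 ± 0.293 did not pass the test (limma adjusted p = 0.421) and was 0.34 without EGFR-low replicate 3. Over parental cells TGFBI was at 0.42 ± 0.293 (limma adjusted p = 0.505), or at 0.17 without that library. TGFBI rose over EGFR-high cells by 2.59 ± 0.584 in DMSO (limma adjusted p = 0.00335) and by 3.07 ± 0.584 in vorinostat (limma adjusted p = 0.000841). Without the 4 libraries that stood apart these were 3.51 and 3.81. The change of TGFBI between the experiments was not tested.

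SPARC encodes osteonectin, a collagen-binding matricellular glycoprotein. In untreated cells it was at most 0.229 FPKM and at 0 in 2 of 9 libraries, and it was not tested. In the vorinostat experiment it was at 14.3, 20.1 and 17.8 FPKM in EGFR-low cells in DMSO and at 10.5, 13.7 and 15.8 FPKM in EGFR-low cells in vorinostat. The EGFR-high libraries had 0.0622, 0.139 and 9.37 FPKM in DMSO and 0.425, 0.253 and 0.194 FPKM in vorinostat. All EGFR-low libraries lay above all EGFR-high libraries, of which DMSO replicate 3 was by far the highest, the library that also held 26.3% of the level of the 32 EGFR-low genes. SPARC differed by 2.98 ± 0.656 in DMSO (limma adjusted p = 0.00293) and by 3.46 ± 0.656 in vorinostat (limma adjusted p = 0.000819), and by 4.18 and 3.69 without the 4 libraries that stood apart. It passed the filter only through the EGFR-low libraries, with 1 of 6 EGFR-high libraries at 1 FPKM or more, so it had to differ and its p-values are no support. At these low EGFR-high levels the size depends on the pseudocount: with 0.1 and 5 in place of 1, SPARC differed by 4.60 and 1.63 in DMSO and by 5.13 and 1.78 in vorinostat. In bulk RNA, fewer cells expressing a gene and less RNA per cell cannot be told apart, for SPARC and the other members alike.

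SPP1 encodes osteopontin, a secreted ligand of CD44 and of αv integrins. Untreated levels were 417, 653 and 305 FPKM in EGFR-low, 178, 287 and 119 FPKM in parental and 90.1, 129.9 and 72.0 FPKM in EGFR-high libraries. Every EGFR-low library lay above every parental and EGFR-high library, parental and EGFR-high libraries overlapped, and replicate 2 was the highest of each group. In the vorinostat experiment SPP1 was at 13.3, 1.19 and 0.549 FPKM in EGFR-low cells in DMSO and at 85.6, 50.2 and 43.2 FPKM in EGFR-high cells in DMSO. With vorinostat the levels were 1.68, 0.769 and 0.635 FPKM in EGFR-low and 85.8, 57.7 and 43.1 FPKM in EGFR-high cells. The EGFR-low libraries here lay below every EGFR-high library, and the highest of them, DMSO replicate 1, was the library that held 21.1% of the level of the 101 EGFR-high genes. SPP1 rose by 2.19 ± 0.393 in untreated EGFR-low over EGFR-high cells (limma adjusted p = 0.0100), a call lost without EGFR-high replicate 3 (0.0550). Over parental cells the log2 fold change of 1.25 ± 0.393 did not pass the test (limma adjusted p = 0.175). With the replicate block SPP1 was called there (limma adjusted p = 0.00487), but the numbers were not read as pairing in that comparison. The value over parental cells was 1.29 without the replicate 2 libraries, which passed the threshold with the least alike libraries gone. In DMSO SPP1 differed by -4.00 ± 0.653 on the log2 scale, lower in EGFR-low cells (limma adjusted p = 0.000562), and it fell by 4.94 ± 0.653 in vorinostat (limma adjusted p = 8.21e-05). Without the 4 libraries that stood apart SPP1 fell by 5.18 and fell by 4.90. The opposite directions of the untreated and the other comparison come from separate experiments and their difference was not tested.

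THBS1 encodes thrombospondin-1, which binds CD36 and CD47 and can release active TGFβ from its latent form. In untreated cells THBS1 ranged from 7.82 to 18.9 FPKM with all 3 groups overlapping, and EGFR-low differed from EGFR-high by -0.12 ± 0.338 on the log2 scale (limma adjusted p = 0.965), or by 0.11 without EGFR-low replicate 2. Over parental cells EGFR-low cells were at 0.19 ± 0.338 (limma adjusted p = 0.826). In the vorinostat experiment it was at 5.81, 6.03 and 6.65 FPKM in EGFR-low cells in DMSO and at 22.8, 9.27 and 11.2 FPKM in EGFR-high cells in DMSO. With vorinostat THBS1 was at 4.81, 4.32 and 5.62 FPKM in EGFR-low and at 58.5, 6.87 and 24.6 FPKM in EGFR-high cells. The EGFR-low libraries were lower than every EGFR-high library in both treatments and close to each other, whereas the EGFR-high libraries were widely spread. The log2 fold change of THBS1 in DMSO, -1.01 ± 0.555, did not pass the test (limma adjusted p = 0.148) but was called when the fit held the DMSO groups alone (0.0238) and without EGFR-high vorinostat replicate 1 (0.0476) or 2 (0.0277), and it was -1.09 without the 4 libraries that stood apart and -0.65 without EGFR-high DMSO replicate 1. In vorinostat THBS1 fell by 1.96 ± 0.555 (limma adjusted p = 0.00974). Without EGFR-high vorinostat replicate 1 the value was -1.27 (limma adjusted p = 0.0284), and without the 4 libraries that stood apart the call was lost (-1.26, limma adjusted p = 0.0617).

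EGFR-high and parental cells were compared to ask whether sorting for high EGFR changed the members. Log2 fold changes were -0.19 for FN1, -0.94 for SPP1, -0.18 for TGFBI, 0.30 for THBS1 and 0.04 for TNC, with limma adjusted p-values of 0.507 for SPP1 and higher for the others. Without parental replicate 2 SPP1 was at -0.615. The libraries of both groups overlapped for each of the 5.

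Vorinostat was compared with DMSO within each sorted population. In EGFR-low cells the log2 fold changes were 0.32 for FN1, -0.88 for SPP1, 0.47 for TGFBI, -0.28 for THBS1, 0.12 for TNC and -0.37 for SPARC. In EGFR-high cells they were 0.60 for FN1, 0.06 for SPP1, -0.01 for TGFBI, 0.67 for THBS1, 0.27 for TNC and -0.85 for SPARC. The groups overlapped for every member except THBS1 in EGFR-low cells, where all 3 vorinostat libraries lay below all 3 DMSO libraries (exact two-sided permutation p = 0.1). The share of all genes without overlap was not counted, so the lack of overlap for THBS1 is no support for a drug effect. With 1 library left out at a time the values in EGFR-low cells ranged from 0.17 to 0.41 for FN1. For TGFBI they ranged from 0.14 to 0.77, for SPARC from -0.49 to -0.22 and for SPP1 from -1.50 to 0.10. Over the other alternatives the lowest FN1 value in EGFR-low cells was 0.06. By limma 0 of 6 members were called in either population, with 0% of genes called in both, and 0 members had an unadjusted p under 0.05. Over all genes limma called 0 in either population, while 115 genes in EGFR-low and 409 genes in EGFR-high cells had an unadjusted p under 0.05. The interaction, which asks whether the vorinostat effect differed between the populations, likewise gave 0 of 6 members called by limma with 0% of genes called, 0 members at an unadjusted p under 0.05 and 215 genes at an unadjusted p under 0.05. Its largest member values were -0.95 for both THBS1 and SPP1 (limma adjusted p = 0.999 for each). When 1 library was left out THBS1 lay between -1.72 and -0.26 and SPP1 between -1.56 and 0.040. The interaction of TNC, at -0.15, reached -1.185 over the other alternatives. A p that misses the threshold does not show that the drug left these genes unchanged.

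The differences between libraries of the same number were unequal. In EGFR-high cells FN1 differed between vorinostat and DMSO by 3.10, -0.08 and -1.23 on the log2(FPKM + 1) scale for replicates 1, 2 and 3, TNC by 2.95, 0.05 and -2.18, and SPARC by 0.42, 0.14 and -3.12. In EGFR-low cells SPP1 differed by -2.41, -0.31 and 0.08 and FN1 by 0.85, 0.05 and 0.07. The large differences involve the libraries that stood apart. Over all 12236 genes, 592, 10 and 6 genes differed by more than 1 on the log2 scale between the vorinostat and DMSO libraries of the same number in EGFR-low cells, and 680, 31 and 549 genes in EGFR-high cells. THBS1 in EGFR-low cells differed by -0.23, -0.40 and -0.21, SPARC by -0.41, -0.52 and -0.16 and TGFBI by 1.01, 0.03 and 0.38. How many of all genes kept 1 direction over the pairs was not counted, so the shared signs are no support for a drug effect. Blocking on the replicate number gave a limma adjusted p of 0.9999 for FN1, SPARC, THBS1 and TGFBI alike.

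Patterns across libraries were described by Pearson correlation of log2(FPKM + 1), over the 9 untreated and the 12 other libraries separately. The points share groups and sorted populations, so these values describe these libraries and carry no test. FN1 and TNC varied together in both experiments (r = 0.919 over 9 and 0.978 over 12 libraries), and so did TGFBI and TNC (0.874 and 0.972). SPP1 had r = 0.556 with FN1 over the 9 untreated libraries and -0.719 over the 12 others. Likeness was ranked by the lower of the 2 correlations among 11118 genes tested in both experiments, and members are left out of the names below. By their values above, TNC would stand among those for FN1 and TGFBI, and FN1 among those for TNC. The genes outside the members most like FN1 were IGF2R (0.945 and 0.947), ATXN1 (0.967 and 0.941), RAPH1 (0.923 and 0.933), LIFR (0.922 and 0.982) and KIAA0922 (0.934 and 0.919). Those most like TNC were KIAA0922 (0.934 and 0.961), SPTBN1 (0.922 and 0.924) and HAS3 (0.918 and 0.955). For SPP1 they were GDA (0.963 and 0.990), SLC44A4 (0.948 and 0.970) and AMIGO2 (0.962 and 0.934). For TGFBI they were XPNPEP1 (0.891 and 0.973), NMT2 (0.910 and 0.884) and DCAF4 (0.869 and 0.959), and for THBS1 JARID2 (0.899 and 0.887), DOCK9 (0.898 and 0.878) and NOTCH2 (0.893 and 0.871).

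Other matricellular genes were read beside the members. Of 33 genes of this list 32 were found, and 6 were tested in the untreated and 12 in the vorinostat experiment. In untreated EGFR-low against EGFR-high 0 were called higher and 3 lower, where 3.81% of all genes were called, with a median log2 fold change of -0.96 against -0.03 for all genes. FBLN1, the elastic fiber protein fibulin-1, had a value of -1.85 (limma adjusted p = 0.0123), CYR61, an integrin ligand of the CCN family, -1.20 (0.0216), and EFEMP1, fibulin-3, -1.11 (0.0105), or -1.75 and -0.45 with pseudocounts of 0.1 and 5. The call of FBLN1 was lost without EGFR-high replicate 3 (limma adjusted p = 0.0617), that of EFEMP1 without EGFR-low replicate 3 (0.0531) or EGFR-high replicate 2 (0.0543), and that of CYR61 without any 1 EGFR-low library (0.107, 0.0575 and 0.0585) or EGFR-high replicate 2 (0.103) or 3 (0.0674). In DMSO 5 of the 12 genes were called higher and 4 lower, against 31.1% and 20.7% of all genes, with FBLN1 at -4.48, EFEMP1 at 2.80 and WISP2, another CCN protein, at 2.33. In vorinostat the counts were again 5 and 4, against 36.2% and 22.8% of all genes, with FBLN1 at -6.00, or -3.89 with a pseudocount of 5, EFEMP1 at 3.31 and WISP2 at 3.30. With the replicate block CTGF, at 1.60 and named after its value had been seen, was called as well (limma adjusted p = 0.0110), where 62.4% of all genes were. These counts are no support for a pattern of the list, because many of its called genes passed the filter only through the population in which they are higher and had to differ. These were WISP2, FBLN2 and FBLN7 among the higher genes in both treatments, FBLN1 and THBS4 among the lower genes in both and TNXB in DMSO, named for this after their values had been seen. EGFR-low DMSO replicate 1 held FBLN1 at 13.4 FPKM, against 0.178 and 0.106 FPKM in replicates 2 and 3. Without the 4 libraries that stood apart FBLN1 was at -5.86 in DMSO and -6.30 in vorinostat, EFEMP1 at 3.68 and 3.17 and WISP2 at 3.48 and 3.50. With a pseudocount of 0.1 or 5 WISP2 was at 4.41 or 1.08 in DMSO and at 5.83 or 1.53 in vorinostat. EFEMP1 thus lay lower in untreated EGFR-low cells (0.836 against 2.96 FPKM) and higher in DMSO (31.6 against 5.62 FPKM), in experiments that were not tested against each other. The median log2 fold change of this list was 0.15 in DMSO and 0.25 in vorinostat, against 0.12 and 0.16 for all genes. In the comparisons of EGFR-low or EGFR-high with parental cells limma called 0 genes of this list.

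Receptors of the members formed a list of 19 genes, 14 of them tested. In untreated EGFR-low against EGFR-high 2 were called higher and 0 lower, where 3.81% of all genes were called: ITGB3, the β3 integrin chain that pairs with αv to bind fibronectin and osteopontin, at 2.46 (limma adjusted p = 8.37e-05), and ITGA5, the α5 chain of the main fibronectin receptor, at 1.48 (limma adjusted p = 0.0378). ITGB3 was at 4.60, 6.15 and 7.71 FPKM in EGFR-low cells and under 1 FPKM in all EGFR-high and parental libraries, with means of 0.281 and 0.517 FPKM. It passed the filter only through the EGFR-low libraries and had to differ, and its size depends on the pseudocount, with 4.01 for 0.1 and 1.07 for 5. For ITGA5, leaving out parental replicate 1 (limma adjusted p = 0.0625), EGFR-low replicate 1 (0.159) or 3 (0.157), or EGFR-high replicate 1 (0.108), 2 (0.1495) or 3 (0.0857) ended the call, as did no filter (0.0717), a filter at 5 FPKM (0.0524) or only the compared groups (0.0609). With the replicate block CD44, at -1.18, was called lower as well, with a limma adjusted p of 0.0260, where 8.54% of all genes were called. Against parental cells ITGB3 alone was called in EGFR-low cells, at 2.22 (limma adjusted p = 0.000405), with 3.36 and 1.01 under the same pseudocounts and 1.60% of all genes called. The filter fixed this call as well, so neither count of receptors is support for a pattern. Between EGFR-high and parental cells limma called 0 receptors. In DMSO 4 of 14 receptor genes were called higher and 4 lower, near the background of 51.8% of all genes called, with ITGA2, the α2 chain, at -1.77, SDC1, syndecan-1, at 1.64 and ITGB5, the β5 chain, at -1.23. In vorinostat 4 were called higher and 6 lower, against 59.0% of all genes called, with ITGA2 at -2.34, CD44, a receptor of SPP1, at -1.50 and ITGB8, the β8 chain, at -1.47, or -2.43 and -0.64 with pseudocounts of 0.1 and 5. When the 4 libraries that stood apart were left out, ITGA2 was at -2.14, SDC1 at 2.03 and ITGB5 at -1.57 in DMSO, and ITGA2 was at -2.27, CD44 at -1.46 and ITGB8 at only -0.69 in vorinostat. ITGB3 was at 0.87 in DMSO and 0.52 in vorinostat and was not called (limma adjusted p = 0.153 and 0.377). ITGA5 was called higher in both, at 1.07 and 1.00 (limma adjusted p = 0.00136 and 0.00144). Both are given here after their values had been seen, and without fits that leave out the libraries that stood apart. The median log2 fold change of the receptors was 0.22 untreated, -0.08 in DMSO and -0.48 in vorinostat, against -0.03, 0.12 and 0.16 for all genes.

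Matrix assembly and crosslinking genes, formed a list of 12 with 9 tested. In untreated EGFR-low against EGFR-high 2 were called lower and 0 higher, where 3.81% of all genes were called, LOXL1 at -1.42 (limma adjusted p = 0.0395) and LOXL4 at -1.01 (limma adjusted p = 0.0119), both lysyl oxidase-like enzymes that crosslink collagen or elastin. With pseudocounts of 0.1 and 5 LOXL4 was at -1.785 and -0.36. LOXL4 passed the filter only through EGFR-high and parental libraries, with EGFR-low cells at 0.565 ± 0.187 FPKM. It thus had to differ here and against parental cells, and its p-values and the counts that hold it are no support. With the replicate block 5 were called, where 8.54% of all genes were: LOXL4 (limma adjusted p = 0.00747), TGM2 (-1.52, 0.0304) and LOXL1 (0.0426) lower and LOX (0.78, 0.0206) and LTBP1 (1.15, 0.0311) higher. Without the block the unadjusted p was 0.00214 for LOX and 0.00570 for LTBP1 (limma adjusted p of 0.0544 and 0.103), 2 genes named here after their values had been seen. The LOXL1 call was lost without parental replicate 1 (limma adjusted p = 0.0735), any 1 EGFR-low library (0.116, 0.115 and 0.0532), EGFR-high replicate 2 (0.139) or 3 (0.172), without all replicate 2 libraries (0.102), with no filter (0.0644) and with a filter at 5 FPKM (0.0544). LOXL4 lost its call when EGFR-low replicate 1 (limma adjusted p = 0.0837) or EGFR-high replicate 2 (0.0606) or 3 (0.0552) was left out. Against parental cells LOXL4 was called at -1.20 (limma adjusted p = 0.00846), or -2.05 and -0.45 with the same pseudocounts, where 1.60% of all genes were called, lost without EGFR-low replicate 1 (0.0677), and EGFR-high against parental cells gave 0 calls by limma. In DMSO 5 of the 9 genes were called lower, against 20.7% of all genes, with PXDN, a peroxidase of basement membranes, at -4.00, TGM2, the transglutaminase that crosslinks fibronectin, at -3.72 and LOXL1 at -3.68. In vorinostat 5 were called lower, against 22.8% of all genes, with TGM2 at -5.44, PXDN at -4.99 and LOXL1 at -4.40. In both treatments 3 of the 5 (PXDN, LOX and LOXL4, named for this after their values had been seen) passed the filter only through the EGFR-high libraries and had to differ, so the counts are no support for a pattern. EGFR-low DMSO replicate 1 held LOXL1 at 16.1 FPKM, against 1.19 and 1.35 FPKM in replicates 2 and 3. Leaving out the 4 libraries that stood apart, PXDN was at -5.18 in DMSO and -5.26 in vorinostat, TGM2 at -4.75 and -4.84 and LOXL1 at -4.70 and -4.50. With a pseudocount of 5 PXDN was at -2.56 in DMSO and -3.02 in vorinostat. The medians of this list were -0.24 untreated, -1.20 in DMSO and -1.48 in vorinostat. Vorinostat against DMSO gave 0 called genes by limma in all 3 lists, in both populations and in the interaction.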

How the data were processed

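The deposited tables hold FPKM values per gene, made by the authors from mRNA sequencing, with STAR 2.5.1b, Cufflinks 2.2.1, DESeq2 1.10.1 and hg19 named in the submitters' processing notes. The unit was taken from the values and those notes, no intervals are given with it, and the depth of each library is unknown. Summed FPKM ran from 467897 to 592942 in the 9 untreated libraries and from 511011 to 582866 in the 12 libraries of the vorinostat experiment.

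Every gene that reached 1 FPKM in 3 or more libraries of its experiment (11305 and 12236 of 20111) was tested on log2(FPKM + 1) with limma 3.58.1 in R 4.3.3 (1 mean per group, trended prior, all groups of the experiment in a fit), adjusting over all tested genes of a comparison by Benjamini-Hochberg and calling at an adjusted p under 0.05. For single members an exact permutation test, two-sided, was run as well, whose smallest p with 3 against 3 libraries is 0.1. Tables were made in Python 3.11.15 with pandas 2.3.3 and numpy 2.4.6, and plots in matplotlib 3.10.9. The exact test was computed in Python by going through every split of the libraries. Promoters came from RefSeq GRCh38.p14, and 7 of 7 members matched.

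The members and lists were chosen with earlier results of these data known. All 7 members were named in every comparison, together with up to 3 called genes with the largest absolute log2 fold change from each list. Members aside, the 5 genes most like FN1 and the 3 most like each other member tested in both experiments were named as well. Deviations from group means correlated between libraries of the same number by over 0.1 in every pair for EGFR-low with EGFR-high untreated (0.343, 0.730 and 0.689), EGFR-low with EGFR-high in vorinostat (0.353, 0.351 and 0.163) and EGFR-low cells in vorinostat and DMSO (0.267, 0.302 and 0.329). By this threshold the numbers were read as pairing there and not in the other comparisons. Libraries of different numbers correlated by up to 0.624, 0.249 and 0.116 in the same comparisons. In the untreated and the vorinostat comparison this is above the lowest value of the same number, so passing 0.1 does not show pairing. The untreated block also spans the parental libraries, whose numbers were not read as pairing. Calls gained with the block are an alternative only. Alternatives tried were a pseudocount of 0.1 or 5, no filter, a filter at 5 FPKM, the replicate block, fits of only the compared groups, quantile normalization, median-of-ratios scaling and each library left out. Leaving out the libraries that stood apart was added once the data had been seen. When libraries were left out, the genes tested stayed those kept from all libraries.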

Additional observations from a re-analysis of the deposited data

Results flagged for a closer look

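SPP1 differed between EGFR-low and EGFR-high cells in opposite directions in the 2 experiments, with no overlap of the libraries in either. In untreated cells all 3 EGFR-low libraries (305 to 653 FPKM) lay above all 3 EGFR-high libraries (72.0 to 129.9 FPKM). In DMSO the log2 fold change of SPP1 was -4.00 and in vorinostat it was -4.94, with every EGFR-low library below every EGFR-high library. The difference between the experiments was not tested.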

How the results depend on the processing

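Over the log2 fold changes of the members and all alternatives, 831 of 921 values kept their direction and their side of the threshold, 29 lost a call, 9 gained one and 52 turned in direction. All values that turned were uncalled before and after. The cause was not tested for any value below.

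Between untreated EGFR-low cells and parental cells the members called were 1 as reported, 0 with no filter on low values, 0 when the fit held the compared groups alone and 3 without the replicate 2 libraries, which are the least alike of their groups, so that counts gained there are no support. The replicate block gave 3 there (FN1, SPP1 at 0.00487 and TNC at 0.0374, limma adjusted p), but deviations of same-numbered libraries correlated at 0.587, 0.416 and -0.092, so the numbers were not read as pairing and these calls are not from a paired design. Besides these and the call of TNC against EGFR-high given in the report, the block changed no other member call. Leaving out 1 library at a time, the members called ranged from 1 to 2 in the untreated comparison with EGFR-high cells, from 0 to 1 in that with parental cells and from 3 to 6 in DMSO. Of all 12236 genes, these DMSO fits called as few as 2943 higher and 1982 lower, without EGFR-low DMSO replicate 2. They called as many as 4292 higher and 2908 lower, without EGFR-high vorinostat replicate 1.

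In EGFR-high against parental cells TNC turned to -0.032 with median-of-ratios scaling and to -0.16 with quantile normalization. For vorinostat against DMSO without the 2 DMSO libraries that stood apart, SPP1 was 0.10 and TNC -0.083 in EGFR-low cells, and SPP1 was -0.13, SPARC 0.23 and TGFBI 0.58 in EGFR-high cells. Without 4 libraries TNC was -0.21 in EGFR-low cells, and SPP1 was -0.39, SPARC 0.15 and THBS1 -0.14 in EGFR-high cells. TGFBI in EGFR-high cells was 0.047 with median-of-ratios scaling and 0.035 with quantile normalization. The interaction was 0.24 for SPP1, -0.72 for SPARC and -0.44 for TGFBI without the 2 DMSO libraries, and 0.27 for SPP1 and -0.49 for SPARC without 4.

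Over the fits with 1 library left out, THBS1 ranged from -0.31 to 0.11 in untreated EGFR-low against EGFR-high cells and from -0.13 to 0.45 against parental cells. In EGFR-high against parental cells TGFBI ranged from -0.28 to 0.030, TNC from -0.26 to 0.34, THBS1 from -0.015 to 0.56 and FN1 from -0.64 to 0.12. For vorinostat against DMSO in EGFR-low cells SPP1 ranged from -1.50 to 0.10 and TNC from -0.083 to 0.30. In EGFR-high cells SPP1 ranged from -0.19 to 0.35, FN1 from -0.35 to 1.18, SPARC from -1.42 to 0.23, THBS1 from -0.019 to 1.44, TNC from -0.69 to 1.101 and TGFBI from -0.69 to 0.58. The interaction ranged from -1.56 to 0.040 for SPP1, from -0.86 to 0.67 for FN1, from -0.59 to 1.05 for SPARC, from -0.98 to 0.81 for TNC and from -0.11 to 1.16 for TGFBI.

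Counts over all genes moved more. For the genes called, EGFR-low against EGFR-high, untreated, the count of 431 became 660 with no filter, 206 at 5 FPKM, 965 with the replicate block and 205 to 273 without EGFR-low replicate 1 or 3 or any 1 EGFR-high library. For the genes called, EGFR-low against parental, untreated, the count of 181 became 331 with no filter, 82 at 5 FPKM, 525 with the replicate block, 107 with only the compared groups, 929 without the replicate 2 libraries and 67 to 105 without parental or EGFR-low replicate 1 or 3. For the genes called, EGFR-high against parental, untreated, the count of 8 became 15 with no filter, 3 at 5 FPKM, 2 with only the compared groups, 4 without the replicate 2 libraries and as few as 2 with 1 library left out. With no filter 1 gene was called in place of 0 for vorinostat in EGFR-low cells and for the interaction.

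Calls within the lists moved in untreated cells. Against EGFR-high, the 2 assembly genes became 0 at 5 FPKM, 5 with the replicate block and 0 or 1 without parental replicate 1, EGFR-low replicate 1 or EGFR-high replicate 2 or 3, and the 2 receptors became 1 with no filter or the compared groups alone, 0 at 5 FPKM and 1 without parental replicate 1, EGFR-low replicate 1 or 3 or any 1 EGFR-high library. The 3 other matricellular genes became 1 without EGFR-low replicate 3 or EGFR-high replicate 2 or 3. Against parental cells the 1 assembly gene became 0 at 5 FPKM and 2 with no filter or without the replicate 2 libraries, 0 without EGFR-low replicate 1 and 2 without EGFR-low replicate 2, and the 1 receptor became 0 at 5 FPKM, 2 with either scaling or without parental or EGFR-low replicate 2, 3 with the replicate block and 5 without the replicate 2 libraries. With no filter 1 other matricellular gene was called in place of 0. In DMSO the 9 called other matricellular genes became 5 at 5 FPKM.

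Median-of-ratios scaling moved the median log2 fold change of all genes from 0.12 to 0.01 in DMSO, and the calls from 3807 higher and 2527 lower (60.1% higher) to 3207 and 3190 (50.1%). In vorinostat it moved from 0.16 to 0.00 and the calls from 4427 and 2795 (61.3%) to 3650 and 3580 (50.5%). Quantile normalization gave 52.6% and 53.7%, and for untreated EGFR-low against parental cells 42.1% in place of 51.9%.

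Depth is unknown, which limits what can be said of low values such as those of SPARC and POSTN. When libraries were left out, the genes tested were those kept from all libraries. This was set after values with the filter recomputed on the kept libraries had been seen. Of 609 member calls compared between these, 607 were the same and 0 differed, and 2 were not tested with the recomputed filter (SPARC and TNC, vorinostat against DMSO in EGFR-high cells).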
